A study of Arabidopsis thaliana with 9 samples.

Results

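The growth-regulating factor (GRF) genes of Arabidopsis thaliana and their coactivator gene GIF1 (GRF-INTERACTING FACTOR 1, also called ANGUSTIFOLIA3 or AN3) were followed in RNA-seq of seedlings. The set held 10 loci, GRF1 to GRF9 and GIF1, of 33278 loci in the table, and all 10 were present. They were chosen by gene family, with results of the comparison between the genotypes already known, so their FPKM in the wild-type and mutant libraries is given as a description and carries no test of its own. Of the 10, 8 had at least 1 FPKM in all 4 libraries, and GRF7 and GRF8 lay below the filter on low values.

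The series holds 9 samples, of which the 4 RNA-seq libraries are analysed here and the other 5, from 2-week leaves, are not. Whole seedlings were 6 days old, of wild-type Columbia-0 (2 libraries) or labelled as an hd2b hd2c double mutant (2 libraries), and all plants grew on soil under continuous light with no treatment named. HD2B and HD2C encode plant-specific histone deacetylases of the nucleolus, and the comparison asks which transcripts differ when both genes are mutated. The mutant alleles are not named in the labels, and whether the libraries of a genotype came from separately grown plants is not said, so the spread between them may be technical.

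GRF proteins are plant transcription factors that keep cells of young leaves and other organs dividing. They bind DNA through a WRC domain and bind GIF coactivators through a QLQ domain, and GIF1 in turn brings SWI/SNF chromatin remodelling complexes to GRF target genes. In Arabidopsis 7 of the 9 GRF transcripts carry a target site of the microRNA miR396, which lowers GRF levels as a leaf matures, and GRF5 and GRF6 lack the site.

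Levels are in FPKM (fragments normalised by transcript length and library size), which summed to 956002 to 1105981 per library. HD2B averaged 164 ± 37.4 FPKM in wild-type seedlings against 24.3 ± 0.0503 in those labelled as mutant (SD, 2 libraries each), whereas HD2C stood at 56.1 and 63.9 FPKM against 74.7 and 55.8. The mutant libraries are therefore called labelled mutants throughout, since HD2B fell there (limma adjusted p = 3.62e-04) and HD2C was not lower (adjusted p = 0.791). Marker genes of photosynthetic shoot tissue, root hairs, endodermis and dividing cells were all above 0 in sum in every library. Of the shoot meristem markers, STM was present at 2.75 to 4.01 FPKM, while WUS had 0 FPKM in either wild-type library and CLV3 had 0 in wild-type library 1. In bulk seedlings, more cells of a type and more RNA per cell cannot be told apart. An exact two-sided permutation test of 2 against 2 libraries cannot give a p below 0.333, so tests came only from the limma fit over all loci.

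The 10 genes spanned a wide range of levels, and GIF1 and GRF3 led it in both genotypes. In wild type GIF1 averaged 18.7 ± 1.53 FPKM, followed by GRF3 at 16 ± 1.07, GRF4 at 11.7 ± 0.682, GRF1 at 10.6 ± 0.673 and GRF2 at 7.68 ± 0.621 (SD, n = 2 each). GRF5 averaged 4.81 ± 0.442, GRF6 3.53 ± 0.874, GRF9 3.52 ± 0.686, GRF7 1.05 ± 0.469 and GRF8 0.308 ± 0.0750 FPKM. The only neighbours in that order whose library values overlapped were GRF6 and GRF9. In the labelled mutants GRF3 averaged 24.5 ± 0.677 FPKM and GIF1 23.8 ± 3.65, and their values overlapped. The order below them was as in wild type, and there the values of GRF7 and GRF8 overlapped.

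**Figure D1:**
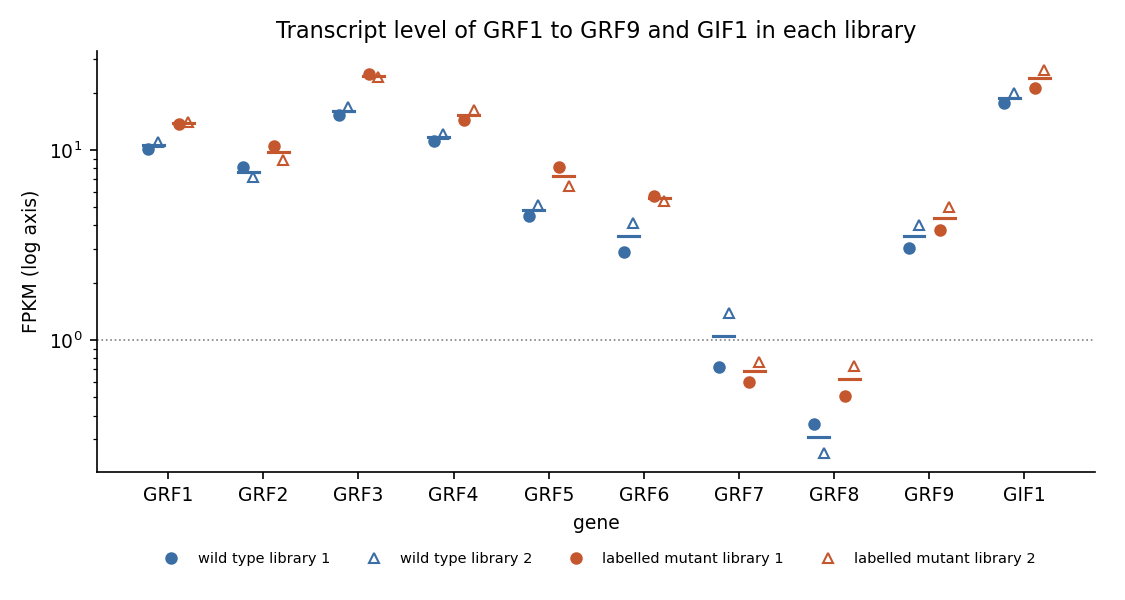
FPKM (log axis) of each gene in the wild-type libraries (blue) and the labelled mutant libraries (orange), with filled circles for library 1, open triangles for library 2, short lines at the group means and a dotted line at 1 FPKM. In GRF1 to GRF6, GRF8 and GIF1 both orange points lie above both blue points, whereas the points of GRF7 and GRF9 overlap.

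GRF1 to GRF4, the more abundant GRF genes with a miR396 site, were each higher in both labelled mutant libraries than in either wild-type library. GRF3 (AT2G36400), which promotes leaf growth and was the most abundant GRF gene, measured 15.2 and 16.8 FPKM in wild-type libraries 1 and 2, against 25 and 24.0 in the labelled mutants. Its mean was 1.53-fold higher, with a fitted difference of 0.59 on the log2(FPKM + 1) scale (SE 0.12).

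GRF4 (AT3G52910), the closest relative of GRF3, was at 11.2 and 12.2 FPKM in the wild-type libraries, compared with 14.4 and 16.2 in the mutant-labelled libraries. The groups did not overlap, and the means differed 1.31-fold (log2 0.36, SE 0.13). The ratio of GRF3 to GRF4 within a library was 1.36 and 1.38 in the wild-type pair and 1.74 and 1.48 in the mutant-labelled pair, so GRF3 was the higher of the pair by more in the latter.

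GRF1 (AT2G22840), which with GRF2 and GRF3 sets leaf size, had 10.1 and 11.04 FPKM in the wild-type pair and 13.6 and 14.0 in the mutant-labelled pair. The replicates of each genotype lay close together, and the means differed 1.31-fold (log2 0.36, SE 0.12). GRF2 (AT4G37740), its closest relative, measured 8.12 and 7.24 FPKM in wild-type libraries 1 and 2, against 10.5 and 8.84 in the labelled mutants. The gap between the nearest libraries of the genotypes was small for GRF2, and the means differed 1.26-fold (log2 0.30, SE 0.14, and 0.18 without labelled mutant library 1). The ratio of GRF1 to GRF2 overlapped between genotypes, at 1.24 and 1.53 in the wild-type pair and 1.295 and 1.58 in the mutant-labelled pair.

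GRF5 and GRF6, the pair without a miR396 site, were also higher in both labelled mutant libraries. GRF5 (AT3G13960), which drives cell proliferation in leaf primordia, was at 4.499 and 5.12 FPKM in the wild-type libraries, compared with 8.17 and 6.46 in the mutant-labelled libraries, 1.52-fold higher in the mean (log2 0.51, SE 0.16). GRF6 (AT2G06200) had 2.91 and 4.15 FPKM in the wild-type pair and 5.75 and 5.38 in the mutant-labelled pair, 1.58-fold higher in the mean (log2 0.55, SE 0.17, and 0.35 without wild-type library 1). For both genes the difference was larger between the libraries numbered 1 (log2 0.74 and 0.79) than between those numbered 2 (0.28 and 0.31). The summed level of GRF5 and GRF6 was 1.54-fold higher in the labelled mutants and that of the 7 genes with a site 1.36-fold higher, and neither sum overlapped between genotypes.

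The remaining GRF genes were weakly expressed. GRF9 (AT2G45480), which is reported to restrain leaf growth, measured 3.03 and 4.003 FPKM in wild-type libraries 1 and 2, against 3.79 and 5.01 in the labelled mutants, and the groups overlapped (log2 0.26, SE 0.18). The difference of GRF9 was 0.10 when wild-type library 1 was left out and 0.093 when labelled mutant library 2 was, against 0.41 and 0.42 without the other library of each genotype. GRF7 (AT5G53660), which represses the drought-response gene DREB2A, was at 0.722 and 1.39 FPKM in the wild-type libraries, compared with 0.602 and 0.763 in the mutant-labelled libraries. It was the 1 gene of the 10 with a lower mean in the labelled mutants, and its groups overlapped. GRF8 (AT4G24150) had 0.361 and 0.255 FPKM in the wild-type pair and 0.510 and 0.732 in the mutant-labelled pair, without overlap, but every value was under 1 FPKM. The files give no fragment counts, so how precise values this low are is unknown.

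GIF1 (AT5G28640) measured 17.6 and 19.8 FPKM in wild-type libraries 1 and 2, against 21.2 and 26.3 in the labelled mutants. The groups did not overlap, and the means differed 1.27-fold (log2 0.32, SE 0.14, and 0.17 without labelled mutant library 2). Its difference was 0.25 for number 1 and 0.39 for number 2, the reverse of the order seen in GRF5 and GRF6.

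**Figure D2:**
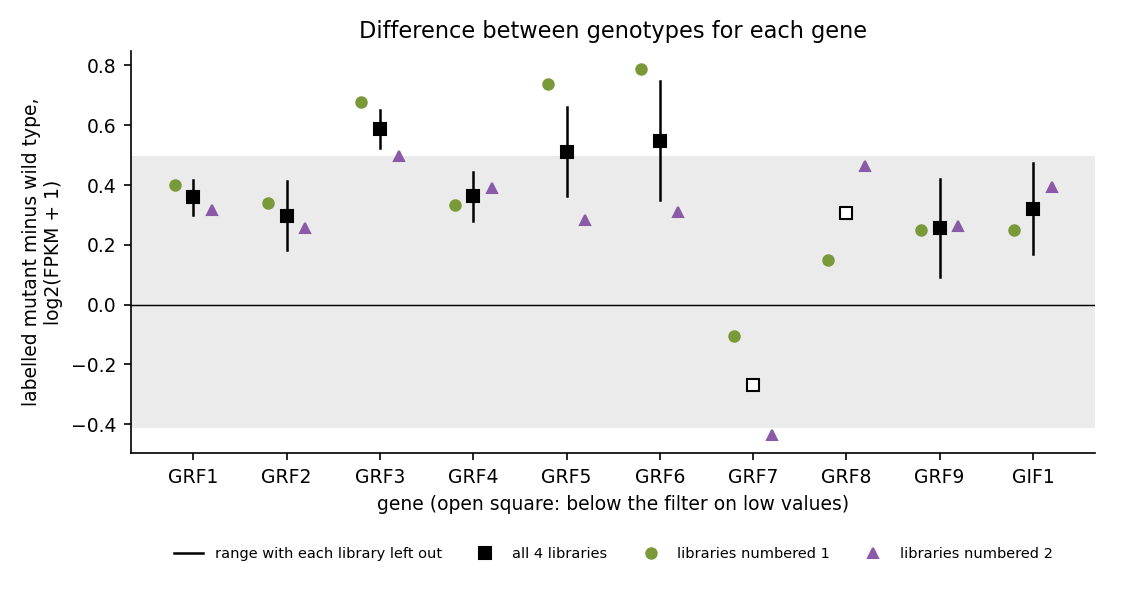
Difference between labelled mutant and wild type in log2(FPKM + 1) for each gene, as the mean over all 4 libraries (squares, open for the genes below the filter on low values), for the pair of libraries numbered 1 (circles) and for the pair numbered 2 (triangles), with bars for the range when each library was left out in turn. The grey band spans the 5th to the 95th percentile of all loci tested, −0.41 to 0.49, and GRF3, GRF5 and GRF6 lie above it at 0.59, 0.51 and 0.55.

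Over all 19917 loci tested, limma called 0.608% higher and 0.552% lower in the labelled mutants at an adjusted p under 0.05 (Benjamini-Hochberg), and none of the 8 tested members was called. At an unadjusted p under 0.05 in the same limma fit, 6 of the 8 were higher, beside 9.22% of all tested loci. A difference above 0 was found for 8 of 8, beside 50.7% of tested loci. Groups did not overlap, with the labelled mutants higher, for 7 of the 8 tested members (and for GRF8), beside 24.2% of tested loci. These shares describe genes picked with the comparison known and are not read as evidence. The median difference of the 8 was 0.36 on the log2(FPKM + 1) scale, from 0.26 for GRF9 to 0.59 for GRF3, and the median of all tested loci was 0.0041. With the libraries numbered 1 alone the median of the 8 was 0.37, and with those numbered 2 it was 0.31.

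Differences across the table followed gene span, the length from start to end of the gene, from a median of 0.15 in the tenth of loci with the shortest span to −0.17 in the tenth with the longest. The spans of the 10 genes ran from 1180 bp for GRF6 to 3605 bp for GRF8. With this trend removed the differences of the 8 tested genes ran from 0.24 to 0.62, with a median of 0.36. GRF6, the shortest, went from 0.55 to 0.41 with the trend removed.

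Added over the 9 genes, GRF transcript was at 56.2 and 62.1 FPKM in the wild-type libraries, compared with 82.4 and 81.4 in the mutant-labelled libraries, 1.39-fold higher in the mean. The labelled mutant libraries were nearly equal and both lay above wild type. Shares of this sum do not depend on how a column was scaled. GRF1 to GRF4 together made up 79.5% and 76.0% of it in the wild-type pair and 77.1% and 77.5% in the mutant-labelled pair, so the make-up of the family was much alike. The share of GRF3 was higher in the labelled mutants, at 30.4% and 29.5% against 27.1% and 27.0%. GRF1 had a slightly lower share there (16.6% and 17.2% against 18.0% and 17.8%), as had GRF7 (0.731% and 0.937% against 1.29% and 2.23%), and the shares of the other 6 genes overlapped.

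**Figure D3:**
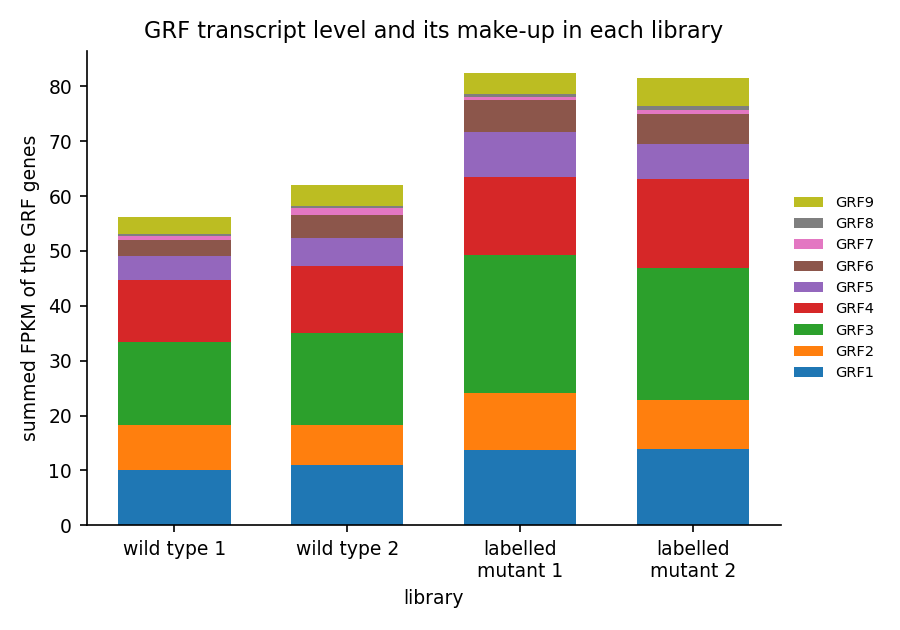
Summed FPKM of the 9 GRF genes in each library, with the bar divided by gene. The bars of the labelled mutants reach 82.4 and 81.4 FPKM and those of wild type 56.2 and 62.1, and GRF3 (green) is the largest part of each.

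GIF2 and GIF3 encode the other GIF coactivators, and the values of both overlapped between genotypes. GIF2 (AT1G01160) had 29.2 and 33.2 FPKM in the wild-type pair and 30.4 and 32.03 in the mutant-labelled pair (log2 0.0027, 95% interval −0.28 to 0.28). GIF3 (AT4G00850) stood at 7.14 and 5.29 FPKM against 4.64 and 5.84 (log2 −0.20, 95% interval −0.61 to 0.20, and −0.018 without wild-type library 1). GIF1 thus made up 32.7% and 34.0% of summed GIF transcript in the wild-type pair and 37.7% and 41.0% in the mutant-labelled pair. The ratio of summed GRF to GIF1 transcript was 3.18 and 3.14 in the wild-type pair and 3.89 and 3.09 in the mutant-labelled pair, which overlap. Against the sum of the 3 GIF genes the ratio did not overlap, at 1.04 and 1.07 in the wild-type pair and 1.47 and 1.27 in the mutant-labelled pair.

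The microRNA side of the pathway was hardly visible in this assay, which does not measure mature microRNAs. MIR396A (AT2G10606) was listed at 0 in wild-type library 1, was at 10.03 FPKM in wild-type library 2, and had 11.5 and 9.59 with the mutant label (log2 1.79, adjusted p = 0.693 by limma). An exact 0 for a locus this short, with a span of 151 bp, can be a failed estimate. Without that library the log2 difference was 0.063 (limma adjusted p = 0.972), and without wild-type library 2, which leaves the 0 as the wild-type value, it was 3.53 (adjusted p = 2.11e-12). MIR396B was listed at 0 in all 4 libraries, as were the 3 loci of miR319, which acts on TCP genes upstream of miR396. The transcript of bHLH74 (AT1G10120), a miR396 target outside the GRF family, measured 11.8 and 11.9 FPKM in wild-type libraries 1 and 2, against 11.6 and 11.6 in the labelled mutants (log2 −0.027, 95% interval −0.30 to 0.24). The ratio of GRF3 to bHLH74 was accordingly 1.29 and 1.41 in the wild-type pair and 2.15 and 2.08 in the mutant-labelled pair.

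TCP genes of the CIN type end cell division in leaves, and TCP4 raises miR396 and thereby lowers GRF levels. Of 8 such genes none was called in either direction, and their median difference was 0.073. TCP4 (AT3G15030) was at 30.4 and 26.4 FPKM in the wild-type libraries, compared with 29.5 and 27.3 in the mutant-labelled libraries (log2 0.0020, 95% interval −0.28 to 0.29). The smallest p belonged to TCP13 (AT3G02150), at 9.66 and 9.85 FPKM against 11.8 and 12.0 (log2 0.27, adjusted p = 0.309 by limma). Unadjusted, 0 of the 8 fell under 0.05 in that fit, beside 3420 of 19917 tested loci in either direction. The ratio of summed GRF to summed TCP transcript was 0.364 and 0.450 in the wild-type pair and 0.564 and 0.516 in the mutant-labelled pair.

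Among 6 genes for SWI/SNF proteins that work with GIF1, none was called by limma. An unadjusted p under 0.05 in that fit was found for 3420 of 19917 tested loci in either direction, and for 2 of these 6 genes, both lower. These were the ATPase genes BRM (AT2G46020), at 15.5 and 17.8 FPKM against 14.5 and 11.2 (log2 −0.36, adjusted p = 0.280), and SYD (AT2G28290), at 12.9 and 14.0 against 11.2 and 8.06 (log2 −0.46, adjusted p = 0.215). Both have long spans, of 9523 and 17067 bp, and their differences shrank to −0.11 and −0.12 once the span trend was subtracted. Without labelled mutant library 2 they were −0.19 for BRM and −0.25 for SYD. The part of span in these values was not tested further.

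Of 10 genes reported to be bound by GIF1 or by GRF proteins, 9 were tested. Of these 8 lay above 0, beside 50.7% of all tested loci, and none was called (median 0.13). In limma 1 had an unadjusted p under 0.05 and was higher, beside 9.22% of all tested loci. The 3 smallest p belonged to KNOX homeobox genes, which keep meristem cells undifferentiated. STM (AT1G62360) had 2.75 and 2.78 FPKM in the wild-type pair and 4.01 and 3.85 in the mutant-labelled pair (log2 0.39, adjusted p = 0.239). KNAT2 (AT1G70510) stood at 0.888 and 1.08 FPKM against 1.56 and 1.38 (log2 0.32, adjusted p = 0.408), and KNAT1 (AT4G08150) at 7.58 and 8.77 against 9.82 and 9.62 (log2 0.23, adjusted p = 0.425). In the whole list the labelled mutants were higher without overlap for 5 of the 10 genes, beside 24.2% of all tested loci, and the other 5 overlapped. The former were these 3, DREB2A and HEC1, of which HEC1 lay below the filter and is not among the tested loci. Without wild-type library 1 the log2 difference of KNAT1 was 0.13.

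Of 14 other regulators of organ size, 11 lay above 0, beside 50.7% of all tested loci, and none was called by limma (median 0.10). In that fit 4 had an unadjusted p under 0.05, all higher, beside 9.22% of all tested loci. ARGOS (AT3G59900), an auxin-induced gene that prolongs cell division, measured 3.998 and 5.11 FPKM in wild-type libraries 1 and 2, against 7.93 and 7.58 in the labelled mutants (log2 0.66, adjusted p = 0.0994). With each library left out in turn its log2 difference ranged from 0.52 to 0.81. ARGOS has a short span, of 968 bp, and its difference was 0.50 with the span trend removed (limma adjusted p = 0.177). CYCD3;1 (AT4G34160), a D-type cyclin gene, stood at 38.2 and 41.2 FPKM against 49.1 and 53.7 (log2 0.36, adjusted p = 0.198). EBP1 (AT3G51800), a growth regulator of dividing tissue, stood at 91.0 and 115 FPKM against 126 and 147 (log2 0.40, adjusted p = 0.260, and log2 0.24 without wild-type library 1).

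**Figure D4:**
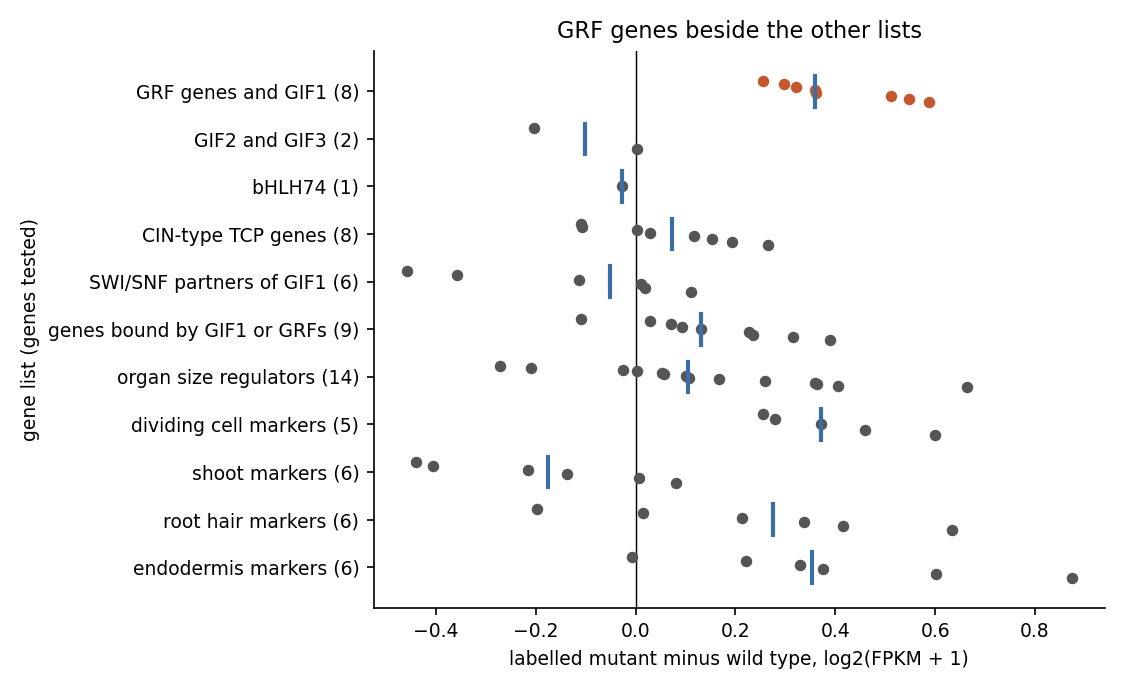
Difference between labelled mutant and wild type in log2(FPKM + 1) for each tested gene (points) of the GRF set (orange) and of the other lists drawn (grey). Blue lines mark the list medians. Seed markers, with a higher median of 4.28, are not drawn, nor are shoot meristem markers, HD2 genes and miR396 loci. The GRF set has a median of 0.36 and dividing cell markers one of 0.37, while the TCP genes lie around 0.073.

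Of 5 markers of dividing cells (2 B-type cyclin genes, 2 B-type CDK genes and KNOLLE) none was called by limma, and 3 had an unadjusted p under 0.05, all higher, beside 9.22% of all tested loci. Both labelled mutant libraries lay above both wild-type libraries for all 5, beside 24.2% of tested loci. The median difference of the 5 was 0.26 with the libraries numbered 1 and 0.48 with those numbered 2. For the GRF set these medians were 0.37 and 0.31, but its members were not alike in this. GRF4 (0.33 and 0.39), GRF9 (0.248 and 0.264) and GIF1 (0.25 and 0.39) had the order of the marker medians. GRF1, GRF2, GRF3, GRF5 and GRF6 had the reverse order. The difference in order was not tested. The summed level of the 5 markers was 129 and 134 FPKM in the wild-type pair and 153 and 193 in the mutant-labelled pair. KNOLLE was the largest part, at 61.0 and 65.7 against 68.3 and 99.0 FPKM. The ratio of summed GRF transcript to the marker sum overlapped, at 0.434 and 0.462 in the wild-type pair and 0.539 and 0.421 in the mutant-labelled pair. The summed level of the 3 shoot meristem markers was 2.75 and 2.93 FPKM in the wild-type pair and 4.24 and 4.37 in the mutant-labelled pair. Nearly all of that sum was STM, already described above, while CLV3 and WUS lay below the filter on low values. Summed levels overlapped between genotypes for the 6 root hair markers, at 24.0 and 35.3 against 48.9 and 33.1 FPKM, and for the 6 endodermis markers, at 27.3 and 40.5 against 61.3 and 37.8. None of these was called, and their median differences were 0.28 for root hair and 0.35 for endodermis markers, from 0.71 and 0.75 with the libraries numbered 1 to −0.14 and −0.076 with those numbered 2. Sums also overlapped for the 6 shoot markers, at 39957 and 36381 against 29661 and 40063 FPKM. Their median difference was −0.18, at −0.52 with the libraries numbered 1 and 0.16 with those numbered 2, and none was called. LHCB4.2 and PSAD2 were lower without overlap, as were 5007 of 19917 tested loci, and the other 4 overlapped. Of the 5 seed markers 2, SESA1 and SESA2, were called higher, beside 0.608% of all tested loci. In the wild-type pair SESA1 had 0 and 0.0946 FPKM and SESA2 had 0 and 0.355. These 2 genes thus passed the filter on low values only through the labelled mutant libraries. The median difference of the 5 seed markers was 4.28. All 5 were higher without overlap, beside 24.2% of tested loci. The 5 summed to 3.05 and 22.5 FPKM in the wild-type pair and 139 and 224 in the mutant-labelled pair. The part of these markers in the GRF values was not tested.

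The genes next to the 10 on their chromosomes did not share their direction as a group. Of 20 immediate neighbours 15 were tested and 9 lay above 0, beside 50.7% of all tested loci. The median difference of the neighbours was 0.020 with a range of −0.74 to 0.48. The neighbour of GRF3, SBE2.1 (AT2G36390), a starch branching enzyme gene, fell from 40.9 and 39.6 FPKM in wild type to 24.6 and 22.9 in the labelled mutants, in the opposite direction to GRF3. Its log2 change was −0.74 (limma adjusted p = 0.0290, which became 0.132 when low loci were kept and 0.0736 once the span trend was subtracted). It was the 1 neighbour called of the 15 tested, beside 0.552% of all tested loci called lower. ANT (AT4G37750), the growth regulator gene beside GRF2, stood at 18.3 and 19.7 FPKM against 18.4 and 22.7, with overlap.

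In the RefSeq annotation the span of GRF3 overlaps that of SBE2.1, the span of GRF1 that of bZIP6 (AT2G22850) and the span of GRF9 that of AUR3 (AT2G45490), an Aurora kinase gene. GRF3 and GRF7 also overlap long noncoding RNA loci. bZIP6 was at 4.68 and 4.31 FPKM in the wild-type libraries, compared with 6.50 and 6.83 in the mutant-labelled libraries (log2 0.48, limma adjusted p = 0.150), and AUR3 at 6.43 and 6.18 against 6.95 and 7.86 (log2 0.20, adjusted p = 0.495, and log2 0.12 without labelled mutant library 2). Whether strand was used in counting is not given in the sources used here, so reads in the shared stretches of these pairs are uncertain.

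The loci most like the set were named by the distance between profiles of log2(FPKM + 1), each centred on its own mean over the 4 libraries. The mean profile of the 8 tested members was −0.28 and −0.13 in the wild-type pair and 0.19 and 0.21 in the mutant-labelled pair. The 3 nearest loci outside the set were AT2G34080, AT5G17160 and AT2G19385, at distances of 0.025, 0.028 and 0.031. AT5G17160, for example, had 16.7 and 18.5 FPKM in the wild-type pair and 23.1 and 23.4 in the mutant-labelled pair. The members themselves lay at 0.054 (GRF1) to 0.30 (GRF2) from their mean profile. Of the 19917 tested loci, 1584 outside the set lay nearer than the median member, at 0.23. A profile of this shape over 4 libraries is thus not particular to the set.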

How the data were processed

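RNA was extracted from seedlings and sequenced as TruSeq libraries, per the labels' protocols, and the authors deposited 1 table of FPKM per locus and library, per the file headers. The submitters' processing notes name TAIR10, TopHat, Bowtie2 and bedtools with no role; the FPKM program, gene models and strand use were not given in the sources used here. Columns were matched to libraries by genotype abbreviation and number. The table has no counts. Among loci under 1 FPKM in all 4 libraries, values of wild-type library 2 and labelled mutant library 2 took common steps. For 54.6% of 3370 loci the ratio of these 2 libraries lay within 0.2% of its commonest value times a ratio of small whole numbers. In other pairings at most 2.67% did, and depth could not be recovered.

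The fit was limma 3.58.1 (R 4.3.3) on log2(FPKM + 1) across all loci with at least 1 FPKM in 2 libraries (19917 of 33278), genotype as the only term, mean-variance trend, robust moderation, two-sided, Benjamini-Hochberg threshold 0.05. Intervals are 95% intervals from this fit. Folds are ratios of mean FPKM. Symbols, spans, overlaps and gene order came from RefSeq TAIR10.1 (98.6% of loci matched). Members and lists were chosen with earlier results of these data known. Named genes were the members, the HD2 genes, genes of lists of 8 or fewer, the 3 smallest p of longer lists, neighbours on the chromosome and the 3 nearest profiles, of which the text describes part. The 11 alternatives covered scaling, filter, pseudocount, block, span and each library left out.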

Additional observations from a re-analysis of the deposited data

How the results depend on the processing

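All 8 tested members lay above 0 under each of the 11 alternatives (medians 0.31 to 0.43). GRF9 had the lowest value, 0.093 without labelled mutant library 2. The count of members past the threshold was 0, and 1 (GRF3) with a replicate block, which carries no weight since the members were chosen with this comparison known. The labels do not say that equal numbers mark a shared origin, and the correlation of same-numbered deviations was 0.168. Loci called higher and lower, 121 and 110 here, numbered 260 and 172 with the replicate block, 332 and 284 after rescaling without rRNA loci, 19 and 20 when low loci were kept, and 69 higher with the trend on gene span removed. With each library left out, 146 to 390 were higher and 107 to 160 lower. Leaving out a library leaves 1 in its group, assumed to vary like the other genotype. Values near 0 changed sign: GIF2 was −0.018 with quantile normalization, −0.051 rescaled without rRNA loci and −0.073 with the span trend removed, and TCP4 was −0.014, −0.051 and −0.011. bHLH74 was 0.0016 with quantile normalization. With libraries left out, GIF2 ranged from −0.087 to 0.092, TCP4 from −0.098 to 0.10, HD2C from −0.10 to 0.31 and ANT from −0.045 to 0.25. Causes were not tested. Without counts, depth limits are unknown, chiefly for GRF7 and GRF8.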
